A study of Mus musculus with 16 samples.

Results

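The expression of DNA repair genes was compared between wild-type (Wt) and Hmgb1-/- (KO) mouse embryonic fibroblasts, the mixed connective-tissue cells grown out of embryos, in 3 culture states. The genes are a list of 46 chosen by function, with earlier results of these data known, so the list was not blind to the data. Their probes were taken from the Illumina bead-array data by gene symbol alone. Of the 46 genes, 44 had a probe, with 82 probes between them, out of 16593 named genes on the array. Fanca and Atr were not analysed here. A probe was tested when its detection p was under 0.01 on every array of at least 1 group, and 32 of the 46 genes had such a probe.

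DNA repair is divided among routes that each deal with a kind of damage. Base excision repair removes small damaged bases and mends single-strand breaks, nucleotide excision repair cuts out bulky lesions, mismatch repair corrects copying errors, and breaks through both strands are rejoined by end joining or copied from the sister chromatid by homologous recombination. The Fanconi anaemia pathway unhooks crosslinks, and kinases such as Atm and Chek2 signal damage to the cell cycle. Hmgb1 bends and packs DNA in chromatin, and several repair genes are known to be transcribed more in cells that replicate their DNA.

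The 6 groups were Wt and KO fibroblasts that were cycling, synchronised in G1, or synchronised in S phase. The cycling and G1 groups held 3 arrays per genotype and the S groups 2, so 16 arrays in all. Per the design text, each Wt and KO pair came from embryos of a Hmgb1+/- female mated with a Hmgb1+/- male, 3 mothers gave the pairs, and the cells were used at passage 3 or earlier. No treatment other than synchronisation is named, and how the cells were synchronised is not given in the sources used here. The arrays lay on 2 slides: all cycling arrays and 1 G1 pair (number 3) shared slide 1, and the remaining G1 pairs shared slide 2 with the S arrays.

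Mean intensity ranged from 394 to 776 over the arrays, and 38.8% to 48.1% of the probes were detected. KO G1 array 1 correlated with the other arrays of its group by 0.881 and 0.883, and those with each other by 0.991. Wt cycling array 3 correlated with its group by 0.951 and 0.941, where the other pair had 0.984. These 2 arrays are said below to stand apart, and results that rest on them are given with and without them. Their same-numbered partners, Wt G1 array 1 and KO cycling array 3, were kept, although deviations from the group means correlated by 0.423 and 0.388 within these pairs. Values without the 2 arrays therefore rest on incomplete pairs, in which genotype and mother are not fully separated. The 2 arrays were picked from these same data, so p-values without them are descriptive. Wt G1 array 1 was nearly as far from its group, at 0.949 and 0.948 where the other pair had 0.99. The probe for Hmgb1 passed detection on 1 array, from a Wt culture, and lay between 4.48 and 5.75 on the log2 scale, so it could not check the genotype. All 9 fibroblast markers with a probe were detected on all 16 arrays, and 4 of 5 endothelial markers were detected on none. Of 6 leukocyte markers with a probe, 4 were detected on all 16 arrays, among them Adgre1 and Lyz2 of macrophages. Of the same list, Ptprc was detected on 8 arrays and Itgam on 1. The summed level of the list was 3957 to 10668 in cycling cells, 5055 to 31381 in G1 and 19344 to 25041 in S. The summed level of 13 replication genes was 11244 to 13064 in cycling cells, 5814 to 7708 in G1 and 9470 to 11310 in S, so every G1 array lay below every array of the other phases.

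Levels are given below as normalized log2 intensity, where a difference of 1 is a 2-fold change, and each gene is represented by its brightest tested probe. A gene is said to have changed when limma's moderated test gave an adjusted p under 0.05 after Benjamini-Hochberg adjustment over all 12078 tested probes. Of the 32 tested genes, 22 were detected on all 16 arrays. The 12 genes with a probe but without a tested one were detected on at most 4 arrays: Mutyh on 4, Msh3 on 3, Ogg1, Nbn and Chek1 on 1 each, and Neil1, Neil3, Xrcc5, Brca1, Fancg, Exo1 and Ercc2 on none. They have no value in the comparisons. The map of all 32 genes over the 16 arrays shows the G1 columns paler or bluer than the cycling columns for most genes.

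**Figure D1:**
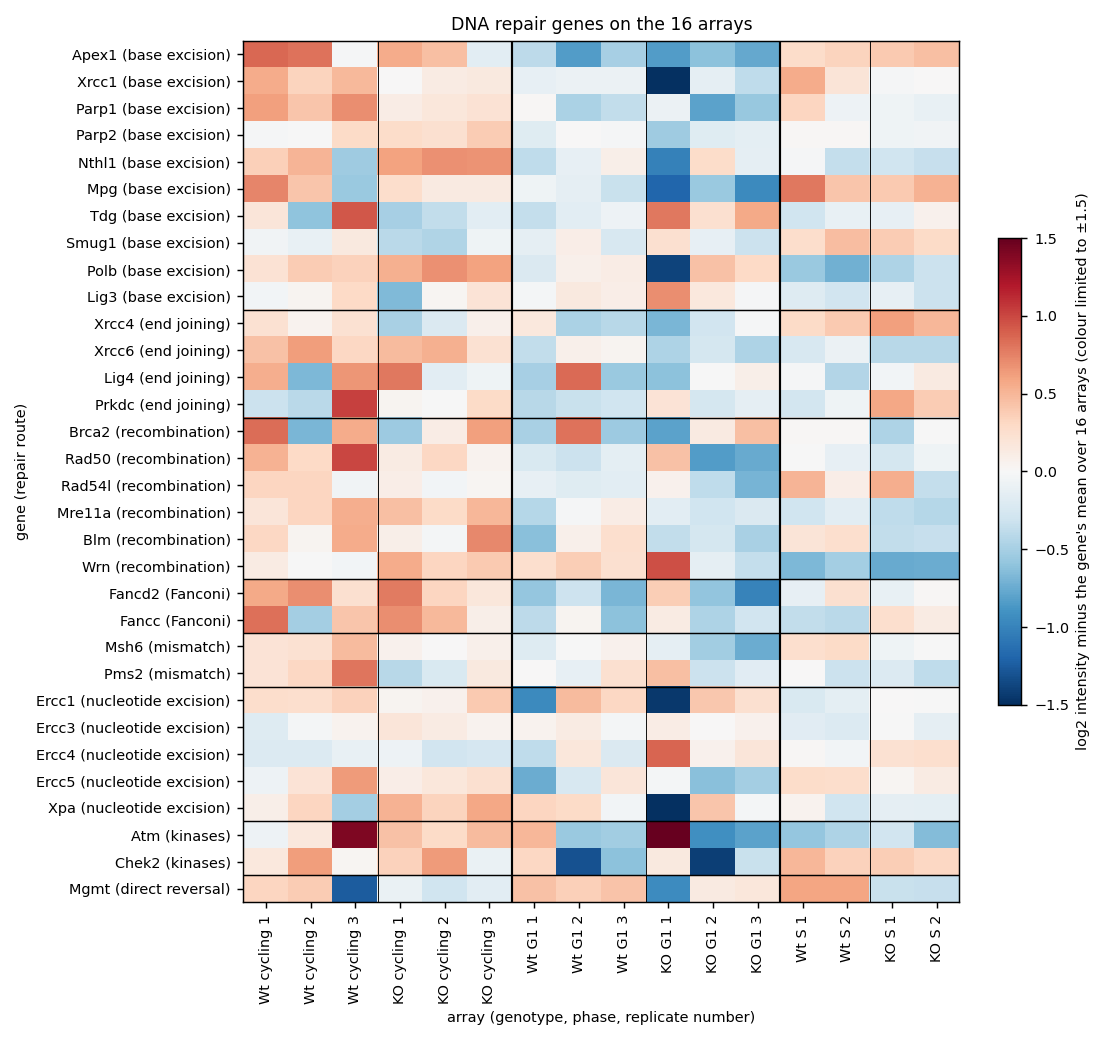
Each row is a DNA repair gene and each column an array, labelled by genotype, phase and replicate number; colour is the log2 intensity minus that gene's mean over the 16 arrays. Apex1, Parp1, Xrcc6 and Mre11a are lower on every G1 array than on every cycling array, and KO G1 1 and Wt cycling 3 carry colours unlike those of their groups.

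The first comparison asked whether the repair genes differed between G1-synchronised and cycling cells, as the mean over both genotypes. Of the 32 genes, 11 were lower in G1 and 0 were higher, against 20.8% of all 8428 tested genes changed in either direction and 10.2% lower. The median difference was -0.41 on the log2 scale for the repair genes and -0.03 for all genes, and 26 of the 32 values were below 0. Among the 22 repair genes detected on all 16 arrays, 9 were lower, against 20.6% changed among all genes detected on all arrays. Fewer cells of a type and less RNA per cell cannot be told apart in these bulk samples. On the same arrays 12 of 13 tested replication genes were lower in G1 and 0 higher, and 5 of 5 tested mitosis genes were lower. The summed level of the mitosis list was 6947 to 7774 in cycling cells and 1553 to 6185 in G1. Their part in the result was not tested.

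The base excision route held 5 of the 11 genes, of 10 tested. Apex1, the endonuclease that cuts DNA where a base is missing, had a lowest, median and highest level of 9.74, 10.41 and 10.76 on the 6 cycling arrays and of 9.06, 9.21 and 9.51 on the 6 G1 arrays. All G1 arrays lay below all cycling arrays. Apex1 was 2.11-fold lower in G1 (log2 difference -1.08 ± 0.18 SE, adjusted p = 0.000967), by -1.13 in Wt and -1.03 in KO. Parp1, the main polymerase that marks broken DNA with poly(ADP-ribose), was at 10.05, 10.26 and 10.63 in cycling cells and at 9.13, 9.51 and 9.95 in G1, again without overlap. Its difference was -0.75 ± 0.15 (adjusted p = 0.00279). Xrcc1, the scaffold on which single-strand breaks are mended, was at 7.75, 7.98 and 8.30 in cycling cells and at 6.16, 7.61 and 7.65 in G1. The groups did not overlap, although 1 KO G1 array lay far below the rest of its group (-0.68 ± 0.20, adjusted p = 0.0292). Mpg, the glycosylase that removes alkylated purines, fell from 5.47, 6.23 and 6.76 to 4.84, 5.58 and 5.97, with overlap and with 4 of 6 G1 arrays detected (-0.73 ± 0.20, adjusted p = 0.0198). Parp2, a second break-sensing polymerase, fell from 10.10, 10.37 and 10.50 to 9.58, 9.95 and 10.12 (-0.37 ± 0.12, adjusted p = 0.0379), and the groups overlapped slightly. The other 5 base excision genes did not pass: Nthl1 (-0.60) and Polb (-0.57), a glycosylase for oxidised pyrimidines and the gap-filling polymerase, had adjusted p-values of 0.076 and 0.126, while Tdg, Smug1 and Lig3 had values of 0.25, 0.08 and 0.20.

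Among the genes that join broken ends, Xrcc6, which encodes the Ku70 subunit of the end-binding ring, was at 10.74, 10.97 and 11.14 on the cycling arrays and at 10.05, 10.19 and 10.59 on the G1 arrays. The 2 ranges did not overlap, and the difference was -0.68 ± 0.12 (adjusted p = 0.00198). Xrcc4 and Lig4, partners in the final ligation, and Prkdc, the kinase that binds Ku, had differences of -0.27, -0.31 and -0.31 and did not pass. Prkdc was detected on 3 of the 16 arrays and on 0 of the 6 G1 arrays, so its G1 level is only a bound.

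In homologous recombination, 2 of 6 genes fell, both of them parts of the complex that holds and trims broken ends. Mre11a, its nuclease, was at 9.07, 9.27 and 9.44 in cycling cells and at 8.46, 8.71 and 9.0 in G1, without overlap (-0.55 ± 0.12, adjusted p = 0.00748). Rad50, its tethering subunit, was at 8.79, 9.05 and 9.74 in cycling cells and at 7.90, 8.47 and 9.18 in G1 (-0.69 ± 0.20, adjusted p = 0.029), and KO G1 array 1 at 9.18 made the groups overlap. The helicase Blm missed the threshold (-0.52 ± 0.18, adjusted p = 0.0527), and the related helicase Wrn had a difference of 0.00 with a 95% interval from -0.40 to 0.40. Rad54l, a motor protein of strand exchange, and Brca2, which loads the recombinase, had values of -0.36 and -0.22.

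In the other routes, 1 gene each of the Fanconi, mismatch and nucleotide excision lists fell. Fancd2, the protein that the Fanconi core complex marks with ubiquitin, was at 5.91, 6.18 and 6.52 in cycling cells, all 6 arrays detected, and at 4.73, 5.15 and 6.11 in G1, where 1 array was detected. The fitted difference was -0.93 ± 0.21 (adjusted p = 0.00706), in which the 5 undetected G1 levels are bounds, so its size is not exact. The detection filter admitted Fancd2 through the cycling and S groups alone, where it was higher, so its call is not free of that filter. The 1 detected G1 array was KO G1 array 1 at 6.11, which also made the overlap. Msh6, which recognises mismatched bases, fell from 10.56, 10.69 and 11.03 to 9.81, 10.39 and 10.61 (-0.43 ± 0.12, adjusted p = 0.0261). Ercc5, the nuclease that cuts on the 3′ side of a bulky lesion, fell from 10.41, 10.67 and 11.12 to 9.74, 10.11 and 10.67 (-0.54 ± 0.18, adjusted p = 0.0468). For Msh6 and Ercc5 the highest G1 arrays reached into the cycling range. Fancc of the Fanconi core complex (-0.60, adjusted p = 0.0638), the kinases Chek2 (-0.82, adjusted p = 0.0623) and Atm (-0.57, adjusted p = 0.35), and Pms2, Ercc1 and Xpa (-0.13, -0.39 and -0.36) did not pass, and Fancc was detected on 0 of 6 G1 arrays. Values above 0 were found for Ercc3 (0.02), Ercc4 (0.30) and Mgmt (0.28), which take part in nucleotide excision and in the direct removal of alkyl groups from guanine.

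**Figure D2:**
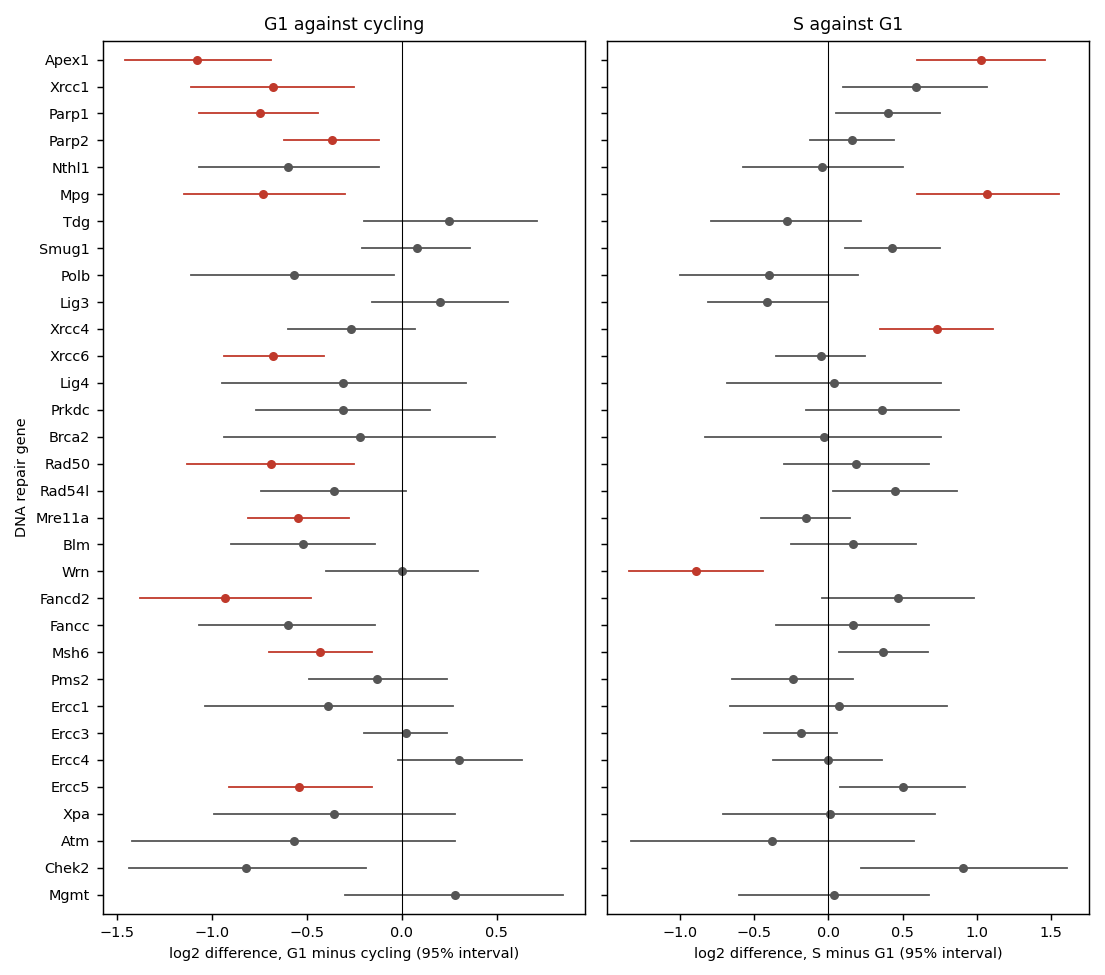
Log2 differences of the 32 repair genes for G1 minus cycling (left) and S minus G1 (right), each with its unadjusted 95% interval; red marks an adjusted p under 0.05 and grey the rest. The 11 red genes on the left are all below 0, while on the right Apex1, Mpg and Xrcc4 are above 0 and Wrn is below.

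Of the 11 genes, 5 had no overlap between the G1 and cycling arrays by the brightest tested probe, all of them lower in G1, where 4.54% of all genes were. Other probes of the same genes gave -1.04 for Apex1 (adjusted p = 0.0553), -0.40 and -0.52 for Parp1, -0.96 for Parp2 (adjusted p = 0.0131), -0.68 and -0.65 for Xrcc6 (adjusted p = 0.0276 and 0.0117), -0.43 for Msh6 (adjusted p = 0.0371), -0.43 for Mpg and -0.49 for Ercc5. The probes of Mre11a disagreed, since the second one had a difference of -0.08 ± 0.14. A second Atm probe passed (-0.62 ± 0.20, adjusted p = 0.048) where the brighter one had not. When the Wt and KO arrays that share a mother were treated as a random block, 6 genes passed, against 16.3% of all genes, and Rad50, Xrcc1, Msh6, Parp2 and Ercc5 did not, with adjusted p-values of 0.0591, 0.0567, 0.0571, 0.065 and 0.0939. With slide as a block, which leaves the comparison to rest on slide 1, the differences of Apex1, Parp1, Fancd2 and Xrcc6 were -1.05, -0.84, -1.31 and -0.65, and 3 genes passed (Apex1, Fancd2 and Parp1) against 6.94% of all genes. Without KO G1 array 1 and Wt cycling array 3, 16 repair genes were lower and 0 higher, against 36.1% of all genes changed and 18.9% lower, and the difference of Xrcc1 was -0.45.

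Promoters are shown for Apex1, which was lower in G1 and higher again in S, and for Xrcc6 and Msh6, the genes that were lower in G1 and hold an E2F core. They are the RefSeq sequences of build GRCm38.p6 from 250 bases before to 50 bases after the gene's start, written 5′ to 3′ on the gene's strand, and capitals mark an E2F core or a CCAAT box on either strand. Xrcc6 lies on the plus strand at chr15:82016119-82016418, Msh6 on the plus strand at chr17:87974800-87975099, and Apex1 on the plus strand at chr14:50924699-50924998.
Xrcc6: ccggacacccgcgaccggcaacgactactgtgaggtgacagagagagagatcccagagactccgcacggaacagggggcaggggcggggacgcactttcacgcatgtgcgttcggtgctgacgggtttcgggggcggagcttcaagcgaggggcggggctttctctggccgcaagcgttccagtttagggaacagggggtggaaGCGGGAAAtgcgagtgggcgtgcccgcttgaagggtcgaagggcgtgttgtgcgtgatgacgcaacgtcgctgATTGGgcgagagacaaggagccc
Msh6: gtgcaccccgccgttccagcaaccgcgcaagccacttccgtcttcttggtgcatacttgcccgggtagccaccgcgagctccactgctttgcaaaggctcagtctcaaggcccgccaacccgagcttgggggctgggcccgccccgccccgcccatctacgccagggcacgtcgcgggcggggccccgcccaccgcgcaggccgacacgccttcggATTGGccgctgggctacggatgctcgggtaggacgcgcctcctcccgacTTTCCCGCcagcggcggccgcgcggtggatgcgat
Apex1: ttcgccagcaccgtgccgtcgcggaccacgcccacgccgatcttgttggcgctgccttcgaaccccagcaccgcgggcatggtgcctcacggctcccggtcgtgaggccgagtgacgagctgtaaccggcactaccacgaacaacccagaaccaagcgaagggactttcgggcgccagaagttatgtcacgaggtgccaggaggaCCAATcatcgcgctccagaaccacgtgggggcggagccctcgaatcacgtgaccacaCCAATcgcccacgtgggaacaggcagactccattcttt
The E2F core was searched as TTTCCCGC, TTTGGCGC, TTTCGCGC and TTTGCCGC, the CCAAT box as CCAAT and the cell-cycle homology region as TTTGAA, each on both strands, and none of these words contains another. Counted from the gene's start, the E2F core begins at base -46 in Xrcc6 and at base 16 in Msh6. It was present in 7 of the 42 promoters found for 38 repair genes (16.7%), those of Brca2, Chek2, Fancg, Msh3, Msh6, Nthl1 and Xrcc6, and in 2.26% of the 32851 promoters of the table. The CCAAT box was present in 26 of the 42 (61.9%) and in 37.4% of all promoters, and the cell-cycle homology region in 1 of the 42, that of Ercc5, and in 17.9% of all. Of the 9 promoters found for genes that were lower in G1, 2 held an E2F core and 7 a CCAAT box. The letters are a description of these windows, and no binding was measured.

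The next comparison set S-synchronised cells against G1-synchronised cells and shares its G1 arrays with the comparison above. Apex1, Mpg and Xrcc4 were higher in S and Wrn was lower, so 4 of 32 genes (12.5%) changed, against 12.1% of all genes (5.98% higher and 6.1% lower). The median difference was 0.11 for the repair genes and 0.03 for all genes. Of the 13 replication genes 11 were higher in S and 1 lower, and the leukocyte list reached the sums given above, and their part in the result was not tested. Apex1 was at 10.18 and 10.24 on the Wt S arrays and at 10.30 and 10.35 on the KO S arrays, all above its highest G1 level of 9.51. It was 2.04-fold higher in S (1.03 ± 0.20, adjusted p = 0.00632). Mpg was at 6.82 and 6.45 in Wt and at 6.42 and 6.55 in KO, all above the highest G1 level of 5.97 (1.07 ± 0.22, adjusted p = 0.00879). Xrcc4, the scaffold of end ligation, was at 7.92 and 8.03 in Wt and at 8.25 and 8.13 in KO, with a highest G1 level of 7.79 (0.73 ± 0.18, adjusted p = 0.0186). Wrn, the helicase lost in Werner syndrome in people, was at 6.74 and 6.90 in Wt S cells and at 6.66 and 6.67 in KO S cells. All 4 arrays lay below the lowest G1 level of 7.06, and Wrn was 1.86-fold lower in S (-0.89 ± 0.21, adjusted p = 0.0164).

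Of the 11 genes that were lower in G1 than in cycling cells, 4 lay within their G1 range on all S arrays: Xrcc6, Mre11a, Rad50 and Fancd2. For Rad50 and Fancd2 the top of the G1 range was KO G1 array 1, and without it only Xrcc6 and Mre11a did. The share of all genes with this pattern was not counted, so the count is only a description. Xrcc6 was at 10.27 and 10.43 in Wt S cells and at 10.10 and 10.10 in KO S cells, within its G1 range, and S minus G1 was -0.05 with a 95% interval from -0.35 to 0.25. Mre11a was at 8.60, 8.73, 8.51 and 8.47, also within its G1 range (-0.15, interval -0.45 to 0.15). Parp1 (0.40), Xrcc1 (0.59), Msh6 (0.37), Ercc5 (0.50), Fancd2 (0.47) and Rad50 (0.19) had positive values that did not pass. Chek2 was at 6.66 and 6.51 in Wt and at 6.53 and 6.48 in KO, above its highest G1 level of 6.47, with a difference of 0.91 ± 0.32 (adjusted p = 0.0854). The uracil glycosylase Smug1 (0.43, adjusted p = 0.0816) and Xrcc1 likewise did not overlap with G1, and the ligase Lig3 was lower on all S arrays (-0.41, adjusted p = 0.188). In all, 6 genes were higher and 2 lower without overlap, against 7.11% and 6.06% of all genes. The second probes of Parp2 (1.0 ± 0.27, adjusted p = 0.0316) and Ercc5 (0.81 ± 0.21, adjusted p = 0.0259) passed although the brighter probes did not. On slide 2 alone 0 repair genes and 0.237% of all genes passed limma's test, with 6 repair genes and 18.3% of all genes at an unadjusted p under 0.05, whereas the 4 calls remained with slide as a block. Without the arrays that stood apart, 15 repair genes passed, 13 higher and 2 lower, against 36.9% of all genes. Prkdc was 1 of the 13. The detection filter admitted its tested probe only through KO S, where it was high, so nothing is read from its passing. With each array scaled by its median in place of quantile normalization, the median of all genes moved from 0.03 to 0.19, 5 repair genes were higher, Wrn no longer passed, and 7.55% of all genes changed.

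**Figure D3:**
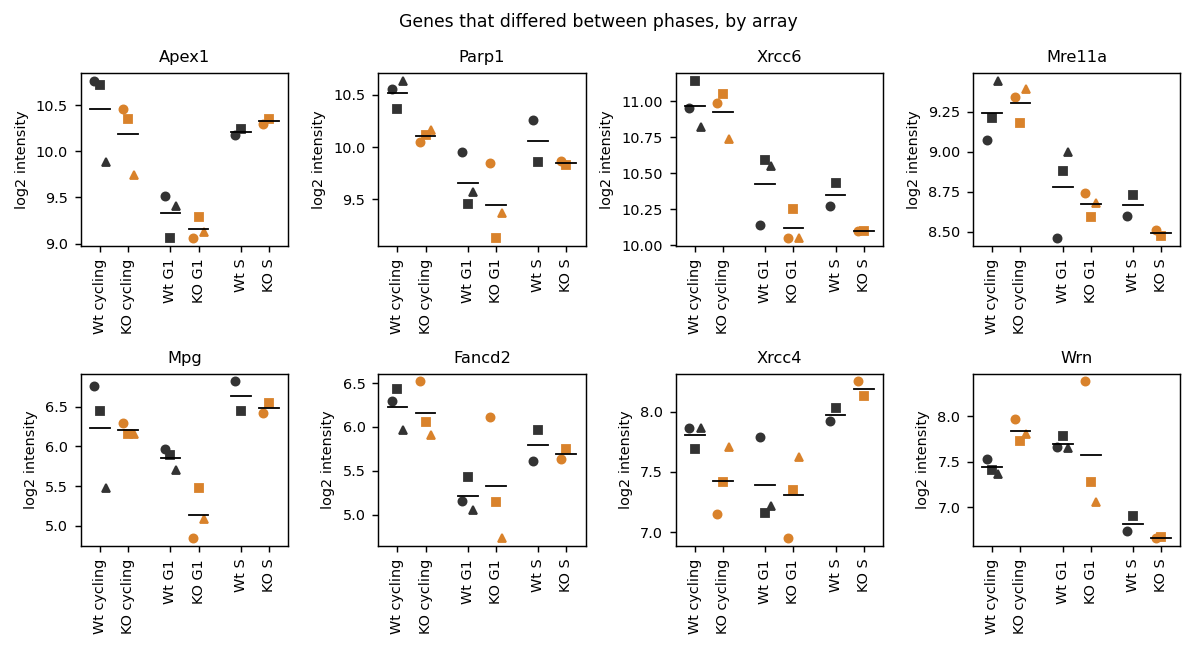
Log2 intensity (vertical axis, a separate range for each gene, not starting at 0) of 8 repair genes on the 16 arrays; black marks Wt and orange KO, circles, squares and triangles mark replicates 1, 2 and 3, and short lines are group means. Apex1 drops in G1 and is high again in S, Xrcc6 and Mre11a drop in G1 and lie within their G1 range in S, and Wrn is low in S.

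Against cycling cells, S-synchronised cells had lower levels of 4 of the 32 genes (12.5%) and higher levels of 0, where 8.63% of all genes changed and 3.61% were lower. Polb was at 5.61 and 5.45 in Wt S cells and at 5.70 and 5.85 in KO S cells, below its lowest cycling level of 6.38 (-0.98 ± 0.28, adjusted p = 0.0469). Wrn (-0.90 ± 0.21, adjusted p = 0.0188), Xrcc6 (-0.72 ± 0.14, adjusted p = 0.00675) and Mre11a (-0.69 ± 0.14, adjusted p = 0.00879) also fell, and by the brightest tested probe none of the 4 genes overlapped between the phases. The second Mre11a probe, detected on all of these arrays, did overlap, at 5.91 to 6.44 in cycling cells and 5.94 to 6.27 in S. Other Xrcc6 probes overlapped as well. In all, 7 of the 32 genes were lower without overlap, where 6.96% of all genes were, and Smug1, Xrcc4 and Ercc4 were higher without overlap, where 9.05% of all genes were. On the same arrays the summed leukocyte level lay between 3957 and 10668 in cycling cells and between 19344 and 25041 in S, and all 5 tested leukocyte markers had positive differences (median 1.39), of which 1 passed. All 5 tested mitosis genes had negative differences, of which 1 passed, and 2 of 9 fibroblast markers and 1 of 2 epithelial markers were higher. Their part in the result was not tested. Apex1, lower in G1, had a difference of -0.05 with a 95% interval from -0.48 to 0.38. The cycling and S arrays lay on different slides, so phase and slide cannot be told apart except through the G1 arrays: with slide as a block 0 repair genes and 0.392% of all genes passed limma's test, with 5 repair genes and 9.39% of all genes at an unadjusted p under 0.05. Under the random block for shared mothers the adjusted p of Polb was 0.0836. With median scaling the median of all genes moved from -0.01 to 0.11, and Wrn was the 1 repair gene that passed, against 5.64% of all genes. Without the arrays that stood apart, 12 repair genes passed, 9 lower and 3 higher, against 30.3% of all genes. Prkdc, admitted only through KO S, was 1 of the 3, and nothing is read from its passing.

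The comparison between genotypes asked which repair genes differed between KO and Wt cells. In the mean of the 3 phases, 0 of the 32 genes passed limma's test, against 2.14% of all genes. At an unadjusted p under 0.05 there were 3 repair genes (9.38%), against 13.3% of all genes. The median difference was -0.06 for the repair genes and 0.00 for all genes, 22 of the 32 values were below 0, and the standard errors ran from 0.09 to 0.35. The values ran from -0.52 for Mgmt to 0.31 for Prkdc, most of whose levels are bounds. On the same arrays all 13 replication genes had negative differences (median -0.25), and 1 of them, Tk1, passed as lower in KO (-0.78 ± 0.18, adjusted p = 0.0424). The summed replication level was 11759 to 13064 in Wt and 11244 to 11713 in KO cycling cells, 7311 to 7708 and 5814 to 7221 in G1, and 11302 to 11310 and 9470 to 9796 in S, so the genotypes did not overlap in any phase. All 5 tested mitosis genes had negative differences as well (median -0.50), with 0 passing and 1 at an unadjusted p under 0.05, and 1 of 9 fibroblast and 1 of 2 epithelial markers were lower in KO. The part of these lists in the values was not tested. Within cycling, G1 and S cells 0 repair genes passed either, where 0.344%, 0.344% and 0.237% of all genes did. In these phases 1, 4 and 0 repair genes (3.12%, 12.5% and 0%) had an unadjusted p under 0.05, against 11.1%, 9.77% and 5.39% of all genes.

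Mgmt, the protein that takes alkyl groups off guanine, was at 7.17, 7.22 and 5.60 on the Wt cycling arrays and at 6.75, 6.55 and 6.68 on the KO cycling arrays. In G1 it was at 7.28, 7.20 and 7.27 in Wt and at 5.90, 6.98 and 7.01 in KO, and in S at 7.44 and 7.44 in Wt and at 6.51 and 6.50 in KO. KO was lower than Wt in 7 of 8 pairs, without overlap in G1 and S, and the exception was the pair with Wt cycling array 3, the lowest of all at 5.60. Msh6, Xrcc6 and Pms2 were also lower in 7 of 8 pairs, and Polb and Prkdc were higher in 7 of 8. The share of all genes for 7 of 8 pairs, or for no overlap within a phase, was not counted. The mean difference of Mgmt was -0.52 ± 0.23 (95% interval -1.02 to -0.02, adjusted p = 0.372). Without the arrays that stood apart it was -0.57 ± 0.06 (adjusted p = 0.000401), with values of -0.53 in cycling cells (adjusted p = 0.0272), -0.26 in G1 (adjusted p = 0.252) and -0.93 in S (adjusted p = 0.00146). With all arrays these values were 0.00, -0.62 and -0.93, and none passed. In S no array was left out, so only the estimate of the spread and the adjustment changed. The partners of the arrays that stood apart were kept, so the mean, cycling and G1 values rest on incomplete pairs, and all these p-values are descriptive.

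Xrcc1 and, by its brightest probe, Parp1 of single-strand break repair were lower in KO in 8 of 8 pairs, as were 2.98% of all genes. Xrcc1 was at 8.30, 8.07 and 8.23 in Wt cycling cells and at 7.75, 7.87 and 7.89 in KO cycling cells. In G1 it was at 7.62, 7.65 and 7.65 in Wt and at 6.16, 7.61 and 7.36 in KO, and in S at 8.30 and 7.94 in Wt and at 7.72 and 7.75 in KO. The genotypes did not overlap within any phase, and the pairs differed by between -0.04 and -1.46 (mean -0.45 ± 0.18, 95% interval -0.83 to -0.06, adjusted p = 0.285). Parp1 differed by between -0.03 and -0.49 over the pairs (mean -0.28 ± 0.13, adjusted p = 0.402), and its G1 and S levels overlapped between genotypes. The probes of Parp1 disagreed, since a second one, also detected on all 16 arrays, was lower in KO in 4 of 8 pairs (mean -0.07 ± 0.15). Without the arrays that stood apart the value of Xrcc1 was -0.30 ± 0.08 (adjusted p = 0.0442).

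Msh6, the mismatch recognition subunit, was at 10.75, 10.78 and 11.03 in Wt cycling cells and at 10.62, 10.56 and 10.63 in KO cycling cells. In G1 it was at 10.36, 10.54 and 10.61 in Wt and at 10.42, 10.03 and 9.81 in KO, and in S at 10.80 and 10.84 in Wt and at 10.49 and 10.54 in KO. KO was lower in 7 of 8 pairs, with overlap in G1 alone, where KO array 1 was the exception (mean -0.32 ± 0.11, adjusted p = 0.185). Its second probe had a difference of -0.28 ± 0.12. Blm, a helicase that dissolves joined chromatids, had a mean difference of -0.30 ± 0.16, with its S levels at 8.53 and 8.58 in Wt and at 7.97 and 7.99 in KO. Those groups did not overlap, whereas the cycling groups did.

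Prkdc, the catalytic subunit of the DNA-dependent kinase, was at 4.78, 4.70 and 6.13 in Wt cycling cells and at 5.14, 5.09 and 5.39 in KO cycling cells. In G1 it was at 4.69, 4.77 and 4.80 in Wt and at 5.30, 4.84 and 4.96 in KO, and in S at 4.82 and 5.04 in Wt and at 5.68 and 5.48 in KO. The tested probe was detected on the KO S arrays and on Wt cycling array 3 alone, so most of these levels are bounds, and it entered the test only through the KO S group. A second probe, which was not tested, was detected on 2 Wt cycling arrays and on 1 KO S array. In S cells the measured difference of the tested probe was 0.65 ± 0.37 and did not pass limma's test. Since that probe was admitted through the group where it was high, nothing is read from this difference.

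**Figure D4:**
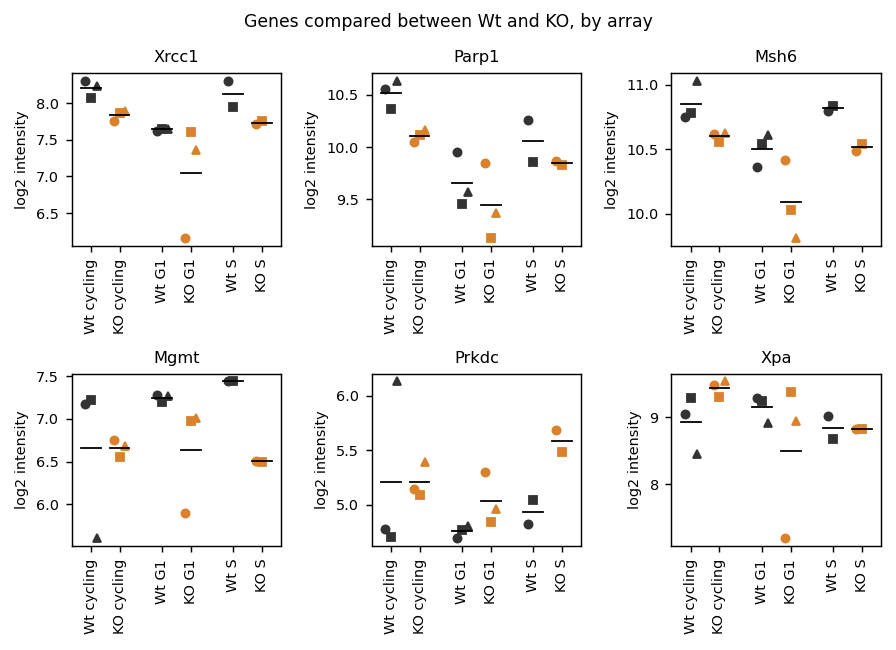
Log2 intensity (vertical axis, a separate range for each gene, not starting at 0) of 6 repair genes on the 16 arrays; black marks Wt and orange KO, circles, squares and triangles mark replicates 1, 2 and 3, and short lines are group means. Xrcc1 is lower in KO in every phase, Mgmt is far below the rest of its group on Wt cycling 3 and on KO G1 1, and Xpa is so on KO G1 1.

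The arrays that stood apart decided several genotype values. On KO G1 array 1, Xpa, the damage-verifying factor of nucleotide excision, was at 7.19 against a mean of 9.16 on the other KO G1 arrays, Ercc1 at 8.97 against 10.74, Polb at 4.78 against 6.54, and Atm at 8.56 against 6.11. Its partner, Wt G1 array 1, moved the same way for Ercc1, at 9.46 against 10.90 and 10.73, and for Atm, at 7.46 against 6.41 and 6.44. There Polb was at 5.95 against 6.24 and 6.28, and Xpa at 9.29 against 9.25 and 8.92. Whether these shifts belong to the pair or to the array was not tested. On Wt cycling array 3, Mgmt lay 1.60 below and Prkdc 1.39 above the mean of the other Wt cycling arrays. The genotype difference of Xpa in G1 was -0.65 with all arrays and 0.01 without these arrays. Without both, 7 repair genes passed in the mean of the phases against 10.1% of all genes: Mgmt, Xrcc1, Msh6, Mpg (-0.37) and Rad50 (-0.31) were lower in KO, Polb (0.31) was higher, and the last was Prkdc. The fits without these arrays kept their partners, so pairs were incomplete and the calls are descriptive. Without Wt cycling array 3 alone Mgmt and Prkdc passed, against 2.5% of all genes, and without KO G1 array 1 alone Msh6 did, against 4.98%. Without both arrays 1 gene passed in cycling cells (Mgmt), 1 in G1 (Msh6) and 2 in S (Mgmt and Prkdc), against 2.41%, 1.06% and 4.38% of all genes. Neither array was an S array, so in S only the estimate of the spread and the adjustment changed. The detection filter admitted the tested Prkdc probe only through KO S, where it was high. Without Wt cycling array 3 no array outside KO S detected that probe, so nothing is read from the passing of Prkdc.

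**Figure D5:**
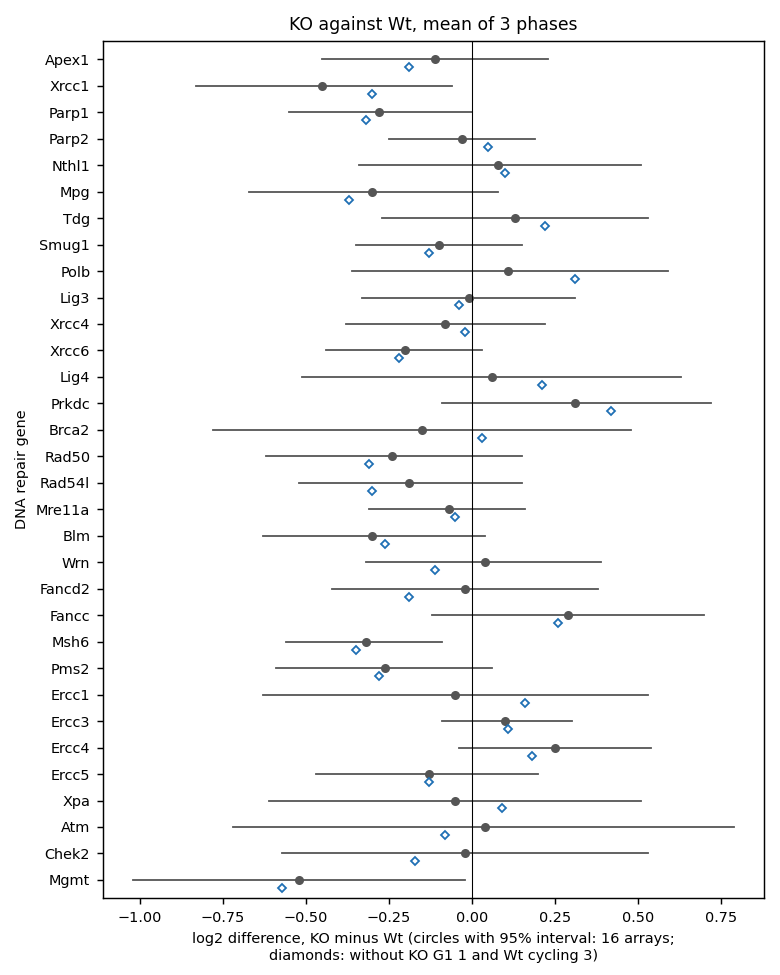
KO minus Wt log2 difference of the 32 repair genes as the mean of the 3 phases, with circles and unadjusted 95% intervals for all 16 arrays and open diamonds for the value without KO G1 1 and Wt cycling 3. All circles lie between -0.52 for Mgmt and 0.31 for Prkdc, and none has an adjusted p under 0.05.

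Single phases had larger values that did not pass. In cycling cells the mismatch repair subunit Pms2 was at 6.98, 7.09 and 7.58 in Wt and at 6.36, 6.54 and 6.92 in KO, without overlap (-0.61 ± 0.24, adjusted p = 0.402), and Nthl1 was at 6.96, 7.11 and 6.07 in Wt and at 7.20, 7.29 and 7.27 in KO (0.54 ± 0.31, adjusted p = 0.587). The value of Nthl1 rested on Wt cycling array 3 and was 0.22 without the arrays that stood apart. In G1 Tdg, the glycosylase that acts on thymine and uracil paired with guanine, was at 7.24, 7.43 and 7.52 in Wt and at 8.38, 7.83 and 8.16 in KO, without overlap (0.72 ± 0.30, adjusted p = 0.459). Mpg was at 5.97, 5.89 and 5.70 in Wt and at 4.84, 5.47 and 5.08 in KO, where 1 of 3 arrays was detected (-0.72 ± 0.28, adjusted p = 0.425). Whether the genotype difference itself changed between phases was tested as an interaction. For G1 against cycling cells 0 repair genes and 0% of all genes passed limma's test, with 1 repair gene (3.12%) and 9.87% of all genes at an unadjusted p under 0.05, and for S against G1 0 and 0% passed, with 0 repair genes and 1.46% of all genes at that level. The genotype difference of Tdg was 1.24 ± 0.42 higher in G1 than in cycling cells (adjusted p = 0.509) and 0.73 without the arrays that stood apart, where Atm (0.25 with all arrays) had -1.02 and Wrn (-0.51 with all arrays) had -0.88, and none of these passed.

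A wider list of 95 repair genes that are not among the 46, also chosen with earlier results of these data known, was read in the same way. Of these, 60 were tested. In G1 against cycling cells 17 were lower (28.3%) and 3 higher (5%), against 10.2% of all genes lower and 20.8% changed, with a median of -0.28. The lower genes included Clspn (-1.0) and Timeless (-1.0), which guard the replication fork, Lig1 (-0.85), the ligase of replication and long-patch base excision, Rpa1 (-0.84), a subunit of the factor that coats single-stranded DNA, and Rad54b (-0.80), a relative of Rad54l. The polymerase Polm (0.70), the nuclease scaffold Slx4 (0.43) and Atrip (0.57), the partner of Atr, were higher in G1. In S against G1 7 were higher (11.7%) and 0 lower, against 5.98% of all genes higher, and the share changed in either direction was close to the 12.1% of all genes. The 7 included Clspn (1.19), Brip1 (1.02), Lig1 (0.96), Tipin (0.95) and Rpa1 (0.83). Between genotypes 1 of the 60 (1.67%) passed limma's test in the mean of the phases, against 2.14% of all genes. It was Ddb2, a sensor of ultraviolet damage, with a fitted difference of -0.52 ± 0.12 (adjusted p = 0.0477), and it was detected on 3 of 8 KO and 5 of 8 Wt arrays, so the other levels are bounds. At an unadjusted p under 0.05 there were 11 of the 60 (18.3%), against 13.3% of all genes, and 41 of the 60 values were below 0.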

How the data were processed

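Total RNA of 16 fibroblast cultures was measured on Illumina bead arrays with BeadStudio 3.0, per the submitters' processing notes. The deposited non-normalized table holds, per the file headers, an average intensity and a detection p-value per probe and array. A deposited table of the authors' normalized intensity values served as an alternative. Intensities were background-corrected from the detection p-values, given an offset of 16 and quantile normalized as log2 values by neqc (limma 3.58.1, R 4.3.3). Symbols came from the platform's probe table, which gave 1 symbol for 23978 of 25697 probes. Requiring detection (p under 0.01) throughout at least 1 group left 12078 probes of 8428 named genes and 687 unnamed probes for testing. A model with a mean for each of the 6 groups was fitted to all 16 arrays, with Benjamini-Hochberg adjustment over all probes, and checked on simulated data. Random blocks used statmod 1.5.0. The number of arrays limits the precision. Same-numbered Wt and KO arrays of a phase were taken as pairs because the design text gives each pair a shared mother (whether a number marks the same mother in every phase is not given in the sources used here), and their deviations correlated by 0.189 to 0.423 in cycling and G1 cells and by 0.0644 in S. Every member could be named, with array values for those that passed and for the few with the largest differences. The members and the gene lists were chosen with earlier results of these data known. Alternatives were other scalings, offsets, filters, blocks and left-out arrays. Promoters are from RefSeq (GRCm38.p6).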

Additional observations from a re-analysis of the deposited data

How the results depend on the processing

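Among the comparisons of genotypes, the count of repair genes that passed was 0 under every alternative run other than those named here: it was 2 without Wt cycling array 3, 1 without KO G1 array 1 and 7 without both for the mean of the phases, 1, 1 and 2 without both in cycling, G1 and S cells (Prkdc being 1 of the 2, of the 7 and of the 2 in S), and 4 in S when only the S groups were fitted, where 17.5% of all genes passed. The 4 were Mgmt, Blm, Prkdc and Fancc. The detection filter admitted Prkdc and Fancc only through KO S, where they were high, so nothing is read from their passing. The interactions gave 0 throughout, although median scaling moved the median of all genes from -0.02 to -0.29 for G1 against cycling, and for KO minus Wt from 0.00 to 0.15 in cycling and from -0.02 to -0.15 in G1 cells. For G1 against cycling cells, 11 genes became 6 with the replicate block by pair, 3 with slide as a block, 2 on slide 1 alone and 6 with only the groups compared, and leaving out arrays gave 5 without replicate 3 in every group and between 0 (without replicate 2 in every group) and 17 (without KO G1 array 1). For S against G1, 4 became 0 on slide 2 alone, 2 with only the groups compared and 15 without both arrays that stood apart, and leaving out arrays gave 0 to 13. For S against cycling cells, 4 became 1 with median scaling, 0 with slide as a block, 9 with only the groups compared and 12 without both arrays, and leaving out arrays gave 0 to 9. Prkdc was among the 15 and the 12 that passed without both arrays, and nothing is read from its passing there either. Without Wt G1 array 1 the counts were 9 for G1 against cycling, 5 for S against G1 and 4 for S against cycling cells. Of the 192 genotype values of the 32 genes (6 comparisons), 45 changed sign without both arrays, none of them a value that passed with all arrays or without both. They include KO minus Wt in G1 of Polb (-0.20 to 0.38) and Atm (0.15 to -0.66), and the interaction for G1 against cycling of Atm (0.25 to -1.02) and Rad50 (0.29 to -0.32). Among the values followed over all alternatives, KO minus Wt of Xpa in G1 was 0.02 on slide 1 alone, 0.01 without KO G1 array 1, 0.08 without replicate 1 in every group and 0.01 without both arrays, with -1.09 as the other end of the range over left-out arrays; the interaction of Mgmt for G1 against cycling was 0.28 without both arrays, and those of Xpa and Polb for S against G1 were -0.03 and -0.14 without KO G1 array 1 and without both, with 1.07 and 0.78 as the other ends. Fewer arrays were fitted in the left-out settings. The cause of the other moves was not tested. Blocking by pair ended no call beyond those given with the results. Probes near background, such as those of Prkdc, Fancc and Fancd2 in G1, limit how small a level can be told from none.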
